A study of Mus musculus with 18 samples.

Results

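The genes described here carry the TNFα signal to the IκB kinases (IKK): the receptors, their adaptors, the TRAF and cIAP proteins, the linear ubiquitin chain complex LUBAC, TAK1 with its TAB partners, the IKK subunits, the IKK-related kinases, and the MAP3K, MAP2K and MAP kinases of the same cascade. The list held 36 genes, taken by symbol. A gene was tested when the FPKM of its assembled transcripts summed to at least 1 in at least 2 libraries, which 35 of the 36 did, among 12236 of the 23212 annotated genes. Map3k5, the stress-activated kinase ASK1, was the gene left out, with 0.904 FPKM in 1 RelA(S276A) library at 0 h and no assembled transcript in the other libraries.

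The libraries were made from immortalized mouse embryonic fibroblasts (MEF) of rela-/- genotype, in which RelA, the main transactivating NF-κB subunit, was put back by a pBABE-puro retrovirus. The study asked how contacts of RelA with the co-activators CBP and p300 shape the TNFα response. The RelA(TA2) line carries 2 substitutions in the TA2 part of the RelA activation domain, the RelA(S276A) line lacks the phosphorylated serine of the Rel homology region, and the RelA(wt) line carries unaltered mouse RelA. Cells of each line were untreated (0 h) or given 5 ng/ml TNFα for 1 h or 2 h, with 2 independent replicates for each of the 9 conditions and 18 mRNA libraries in all. All 3 lines lacked endogenous Rela and expressed RelA from a vector. The labels do not say how many reconstituted populations or clones stood for each RelA form. A RelA mutation and other differences between lines therefore cannot be told apart. Rela itself was listed at 314.9 to 366.4 FPKM in RelA(TA2) cells, 174 to 212 in RelA(S276A) cells and 156 to 187 in RelA(wt) cells. According to the study, RelA(S276A) protein was below RelA(wt) protein. In bulk RNA, fewer cells expressing a gene and less RNA per cell cannot be told apart.

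When TNFα binds its receptor TNFR1, the adaptor TRADD and the kinase RIPK1 assemble with TRAF2 and the cIAP ubiquitin ligases. Ubiquitin chains built by the cIAPs and LUBAC then recruit TAK1 through its TAB partners and IKK through its regulatory subunit NEMO. TAK1 activates IKK, IKK marks IκB for destruction, and freed NF-κB enters the nucleus. Genes of this very cascade, Birc3 and Traf1 among them, are known to be transcribed there.

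Each library held 25.3 M to 31.3 M mapped fragments (median 28.3 M), worked out from the deposited values. The 9 fibroblast markers looked at were all expressed, with a summed 4246 to 4845 FPKM in RelA(TA2) cells, 3526 to 4186 in RelA(S276A) cells and 3781 to 4684 in RelA(wt) cells. Of 7 macrophage, 4 endothelial and 5 epithelial markers, 3, 2 and 4 were listed at 0 in every library, Ptprc, Emr1, Itgam, Epcam and Cdh1 included, while Cd68, Cd14, Csf1r, Cdh5 and Krt8 were expressed. The macrophage list summed to 15.6 to 23.1 FPKM in RelA(TA2) cells, 18.8 to 38.5 in RelA(S276A) cells and 20.1 to 37.7 in RelA(wt) cells. The endothelial list summed to 1.12 to 12.3 FPKM and the epithelial list to 1.85 to 25.97 FPKM over all libraries. The part of these markers in the results was not tested. The labels named no batch. Values are given on 2 scales, since an FPKM summed over assembled transcripts moves when a short extra piece is assembled: FPKM, the tested measure, and fragments per M, the fragments recovered for a gene per 1000000 fragments in genes. The second scale was steadier, the median SD of the members within a condition being 0.0864 on the log2 scale for fragments against 0.274 for FPKM. It is not free of the assembly, since it counts the fragments of the assembled transcripts and can move with their length. Tradd in RelA(TA2) cells at 0 h had 14.6 and 14.9 FPKM on single transcripts of 1947 and 2413 bases. These gave 28.5 and 36.9 fragments per M. Each log2 difference is given with its standard error (±) from limma, with 6 libraries on each side in the averages over lines or times and 2 within a line, and a gene counted as changed when its p, adjusted over all genes tested, was under 0.05.

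The cascade was expressed in all 3 lines at all 3 times, at levels like those of other genes. The median of the 35 tested genes was 11.8 FPKM, against 11.2 FPKM for all genes tested. The highest by median were the receptor Tnfrsf1a (47.5 FPKM), the LUBAC subunit Rbck1 (43.02 FPKM) and the TAK1 partner Tab2 (41.3 FPKM), and the lowest above 0 were Traf5 (3.26 FPKM), Map3k8 (3.37 FPKM) and Tab3 (3.61 FPKM). All 34 tested genes other than Traf1 were above 0 in every library. Between its lowest and highest library, 15 of the 35 moved by less than 1.5-fold in fragments per M and 9 by more than 2-fold, while 3 moved by less than 1.5-fold in FPKM and 25 by more than 2-fold.

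**Figure D1:**
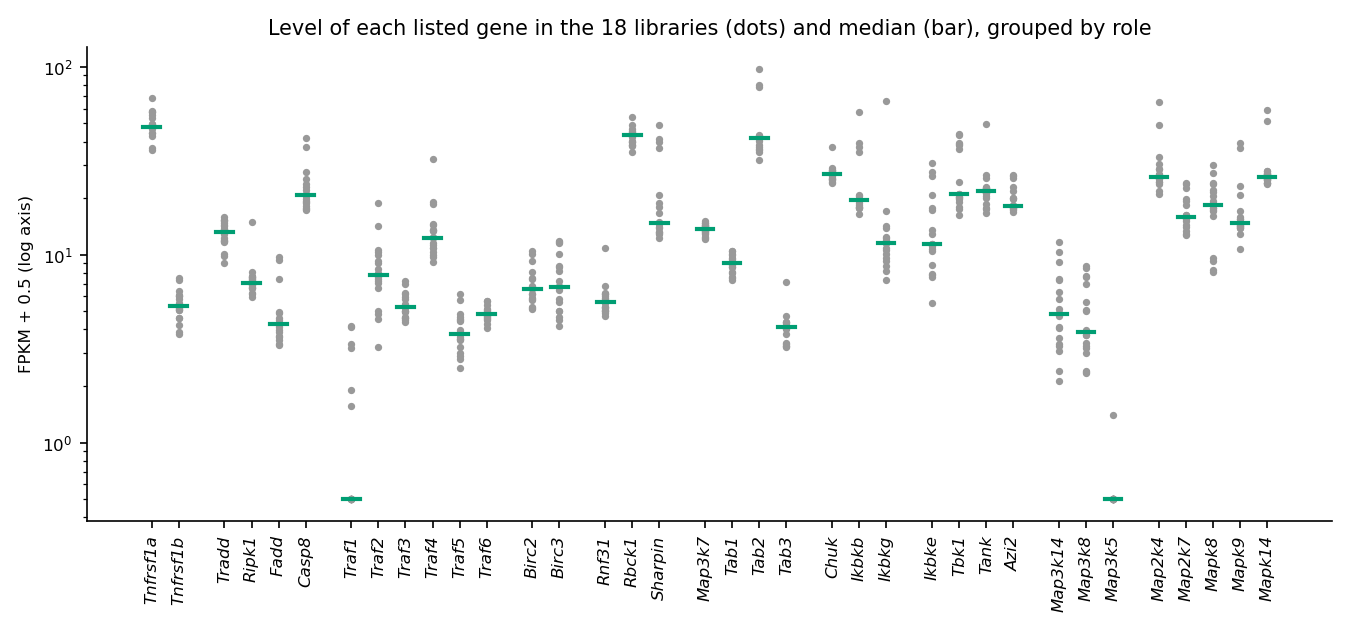
Level of the 36 listed genes in each of the 18 libraries (grey dots, FPKM + 0.5 on a log axis) with the median of the libraries (green bar), grouped by role from receptors (left) to MAP kinases (right). Most genes lie between 3 and 50 FPKM, Traf1 and Map3k5 have a median of 0, and the Ikbkg dot far above its others is the second RelA(TA2) library at 1 h.

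With TNFα, 8.57% of the 35 genes were called changed on FPKM at 1 h and 22.9% at 2 h. On fragments the shares were 20% and 65.7%, with many genes called outside the list too. Averaged over the 3 lines, 0 genes rose and 3 fell on FPKM at 1 h (2 and 5 at an unadjusted p under 0.05), beside 1.92% of all genes tested that rose and 2.43% that fell. On fragments 2 rose and 5 fell, beside 5.65% and 10.3%, the 5 including Rnf31, whose fragments are uncertain. At 2 h, 6 rose and 2 fell on FPKM, beside 3.75% and 5.03% of all genes, and 12 rose and 11 fell on fragments, beside 12% and 25.2%. On fragments the counts at 1 h and the falls at 2 h were thus near the shares of all genes. Small falls at 2 h on fragments also depended on the scaling, as described at the end. The calls made on both scales in the same direction were Tab1 at 1 h, lower, and at 2 h Tnfrsf1a, lower, with Traf3, Traf5, Birc3 and Mapk8, higher. Traf1 is also among the 6 and the 12 that rose, but it reached the minimum for testing through its 2 h libraries, which fixed that call, and 5 and 11 rose without it. The median log2 change of the 35 genes was -0.030 at 1 h and 0.10 at 2 h on FPKM, against -0.031 and -0.052 for all genes, and -0.012 and -0.0090 on fragments, against -0.025 and -0.064. The 1 h and 2 h comparisons share their 0 h libraries.

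**Figure D2:**
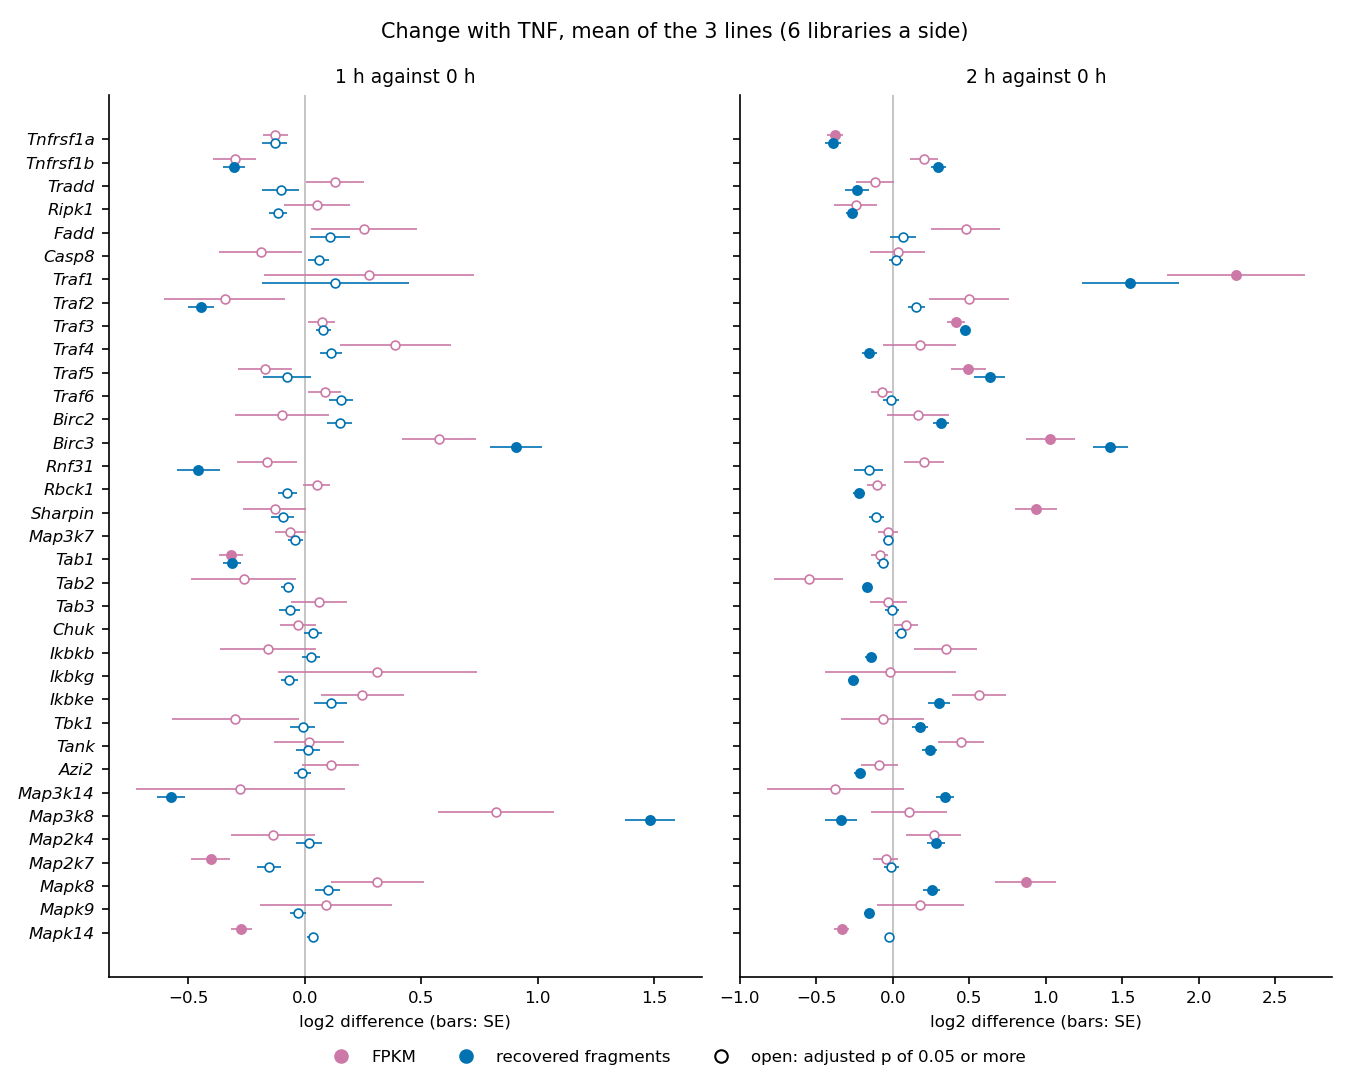
Log2 change with TNFα at 1 h (left) and 2 h (right) for the 35 tested genes, averaged over the 3 lines, on FPKM (pink) and on recovered fragments (blue), with standard errors; filled points have an adjusted p under 0.05. Apart from Traf1, Birc3 and, at 1 h, Map3k8 lie farthest to the right on fragments, while Sharpin at 2 h lies at 0.93 on FPKM and -0.11 on fragments; the Traf1 points depend on the 0.5 added before the logarithm, since it was at 0 in all 0 h libraries.

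Taken line by line, with 2 libraries a side, fewer FPKM calls were made and the fragment calls were spread over all 3 lines. In RelA(TA2) cells 1 gene changed on FPKM and 7 on fragments at 1 h, beside 2% and 10.1% of all genes, and 3 and 17 at 2 h, beside 4.06% and 26.7%. In RelA(S276A) cells 0 changed on FPKM (limma; 4 at an unadjusted p under 0.05) and 7 on fragments at 1 h, beside 1.5% and 6.08%, and 0 (9 unadjusted) and 8 at 2 h, beside 0.973% and 10%. In RelA(wt) cells 1 and 6 changed at 1 h, beside 1.63% and 6.82%, and 2 and 11 at 2 h, beside 1.87% and 12.3%, Traf1 being 1 of the 11. Birc3, Tab1, Map3k14 and Map3k8 passed the fragment test in each line at 1 h. Ripk1, Traf3, Birc3 and Ikbkg did so in each line at 2 h. These calls rest on pairs of libraries, and leaving out 1 library at a time ended several of them. Of the 1 h calls, that of Tab1 in RelA(wt) cells was lost in 12 of 18 refits (adjusted p up to 0.214), that of Birc3 in RelA(S276A) cells in 3 (up to 0.182) and that of Map3k14 in RelA(wt) cells in 3 (up to 0.123). Of the 2 h calls, that of Ikbkg was lost in 6 of 18 in RelA(S276A) cells (up to 0.159) and 3 in RelA(wt) cells (up to 0.199), and that of Ripk1 in 3 in RelA(S276A) cells (up to 0.117) and 4 in RelA(wt) cells (up to 0.131). Only 4 of the 18 refits left out a library of the 2 times compared within a line. The losses of Birc3, Map3k14 and Ripk1, and those of Ikbkg in RelA(wt) cells, all fell among these 4. The Ripk1 call in RelA(wt) cells was lost without any library of its 0 h or 2 h pair. The Traf3 and Birc3 calls at 2 h were kept in all 18 refits in each line.

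Between lines, the clearest member was Ikbke, lower in RelA(S276A) than in RelA(wt) cells on both scales. Averaged over the 3 times, 2 genes were higher and 1 lower in RelA(TA2) cells than in RelA(wt) cells on FPKM, beside 5.71% and 6.02% of all genes, and 3 and 6 on fragments, beside 20% and 20.4%. In RelA(S276A) against RelA(wt) cells 1 gene was higher and 2 lower on FPKM, beside 7.21% and 5.38%, and 6 and 10 on fragments, beside 23.5% and 20.1%. Rnf31, whose fragments are uncertain, is among the 10. The calls shared by the scales were Traf3 and Mapk14, higher, and Tab3, lower, in RelA(TA2) cells, and Tnfrsf1b, higher, with Tnfrsf1a and Ikbke, lower, in RelA(S276A) cells. Both comparisons share the RelA(wt) libraries.

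**Figure D3:**
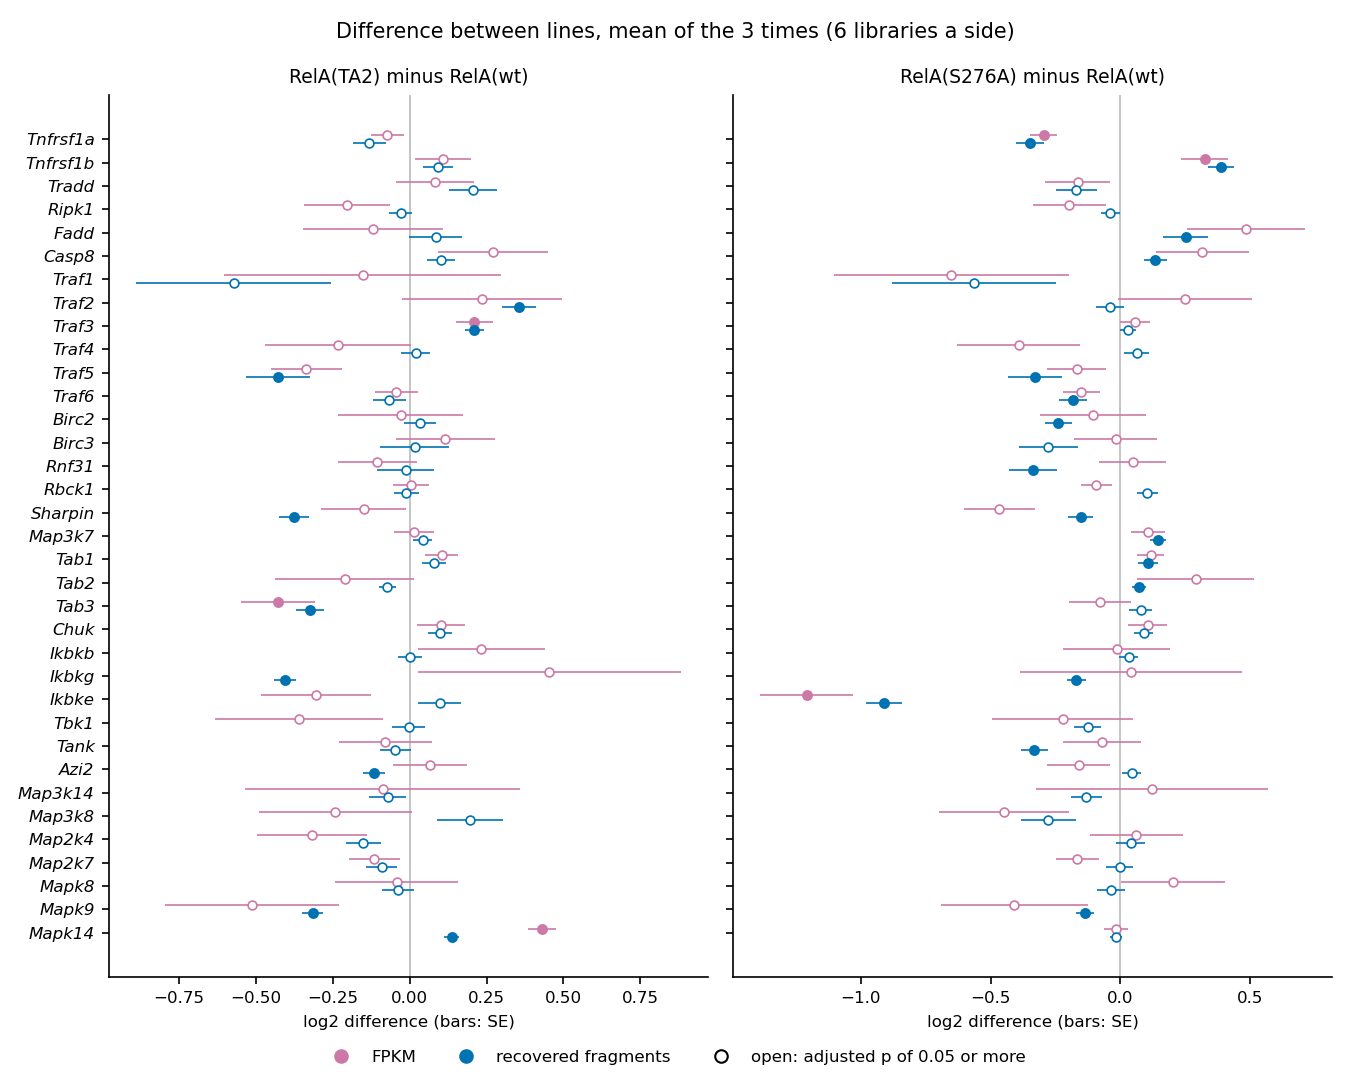
Log2 difference of RelA(TA2) (left) and RelA(S276A) cells (right) from RelA(wt) cells for the 35 tested genes, averaged over 0, 1 and 2 h, on FPKM (pink) and recovered fragments (blue), with standard errors; filled points have an adjusted p under 0.05. Ikbke stands apart in RelA(S276A) cells at -1.21 on FPKM and -0.91 on fragments, and Ikbkg in RelA(TA2) cells is at -0.41 on fragments.

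The test of the response itself, the change from 0 h in a mutant line minus that in RelA(wt) cells, separated few members. For RelA(TA2), 1 gene passed on FPKM and 1 on fragments at 1 h, beside 0.294% and 1.74% of all genes, and 1 and 0 at 2 h, beside 0.253% and 0.335%. For RelA(S276A), 0 passed at 1 h or 2 h on either scale (limma; 2 on FPKM and 2 on fragments at 1 h and 4 and 3 at 2 h at an unadjusted p under 0.05), beside 0.188% and 0.245% at 1 h and 0.172% and 0.278% at 2 h. The genes were Mapk14 on FPKM and Rnf31 on fragments, both described with their families.

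Among the receptors, the gene for TNFR1 fell at 2 h, and the gene for TNFR2 was lower at 1 h and higher at 2 h on fragments. Tnfrsf1a, which encodes the death-domain receptor TNFR1, had 54.96 and 67.7 FPKM at 0 h, 46.7 and 49.1 at 1 h and 44.1 and 42.4 at 2 h in RelA(TA2) cells, 48.9 and 47.8, 46.7 and 43.95, and 36.6 and 35.5 at these times in RelA(S276A) cells, and 52.7 and 57.03, 57.4 and 56.8, and 47.3 and 46.7 at these times in RelA(wt) cells. The recovered fragments came to 130.2 and 167 fragments per M at 0 h, 117 and 119 at 1 h and 97.7 and 102 at 2 h in RelA(TA2) cells, 109.8 and 117, 114 and 103, and 90.8 and 89.03 at these times in RelA(S276A) cells, and 138 and 143, 142 and 139, and 118 and 114 at these times in RelA(wt) cells. The 6 libraries at 2 h were the lowest of each line, and on FPKM all of them lay below all 6 at 0 h, with a change of -0.38 ± 0.053 on FPKM (adjusted p = 0.00153) and -0.39 ± 0.052 on fragments (adjusted p = 0.000178). RelA(S276A) libraries were lower than RelA(wt) libraries at every time, with a log2 difference of -0.30 ± 0.053 on FPKM (adjusted p = 0.00472) and -0.35 ± 0.052 on fragments (adjusted p = 0.000283), although the ranges over the 3 times overlapped. Within RelA(TA2) cells the fall at 2 h was -0.49 ± 0.092 on FPKM (adjusted p = 0.0153), and it was -0.34 (adjusted p = 0.0515) without the second 0 h library, which was the highest of all, and -0.46 (adjusted p = 0.0827) without the second 2 h library. Tnfrsf1b, which encodes TNFR2, the receptor without a death domain, had 4.62 and 4.93 FPKM at 0 h, 4.11 and 3.71 at 1 h and 5.54 and 5.64 at 2 h in RelA(TA2) cells, 5.04 and 6.87, 4.74 and 4.58, and 6.97 and 5.53 at these times in RelA(S276A) cells, and 4.11 and 4.56, 3.37 and 3.27, and 5.92 and 5.29 at these times in RelA(wt) cells. This went with 18.4 and 19.5 fragments per M at 0 h, 16.97 and 15.1 at 1 h and 22.8 and 23.1 at 2 h in RelA(TA2) cells, 22.6 and 24.4, 18.8 and 20.9, and 28.2 and 27.98 at these times in RelA(S276A) cells, and 18.01 and 18.4, 13.5 and 13.01, and 25.2 and 22.1 at these times in RelA(wt) cells. Each line had its lowest pair at 1 h and its highest at 2 h, the changes being -0.30 ± 0.049 on fragments (adjusted p = 0.00108) at 1 h and 0.30 ± 0.049 on fragments (adjusted p = 0.000681) at 2 h, whereas on FPKM neither passed (adjusted p = 0.112 and 0.21). It was higher in RelA(S276A) than in RelA(wt) cells, with a log2 difference of 0.32 ± 0.09 on FPKM (adjusted p = 0.0395) and 0.39 ± 0.049 on fragments (adjusted p = 7.88e-05). That FPKM call was lost in 14 of 18 refits that each left out 1 library, while the fragment call was kept in all 18.

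**Figure D4:**
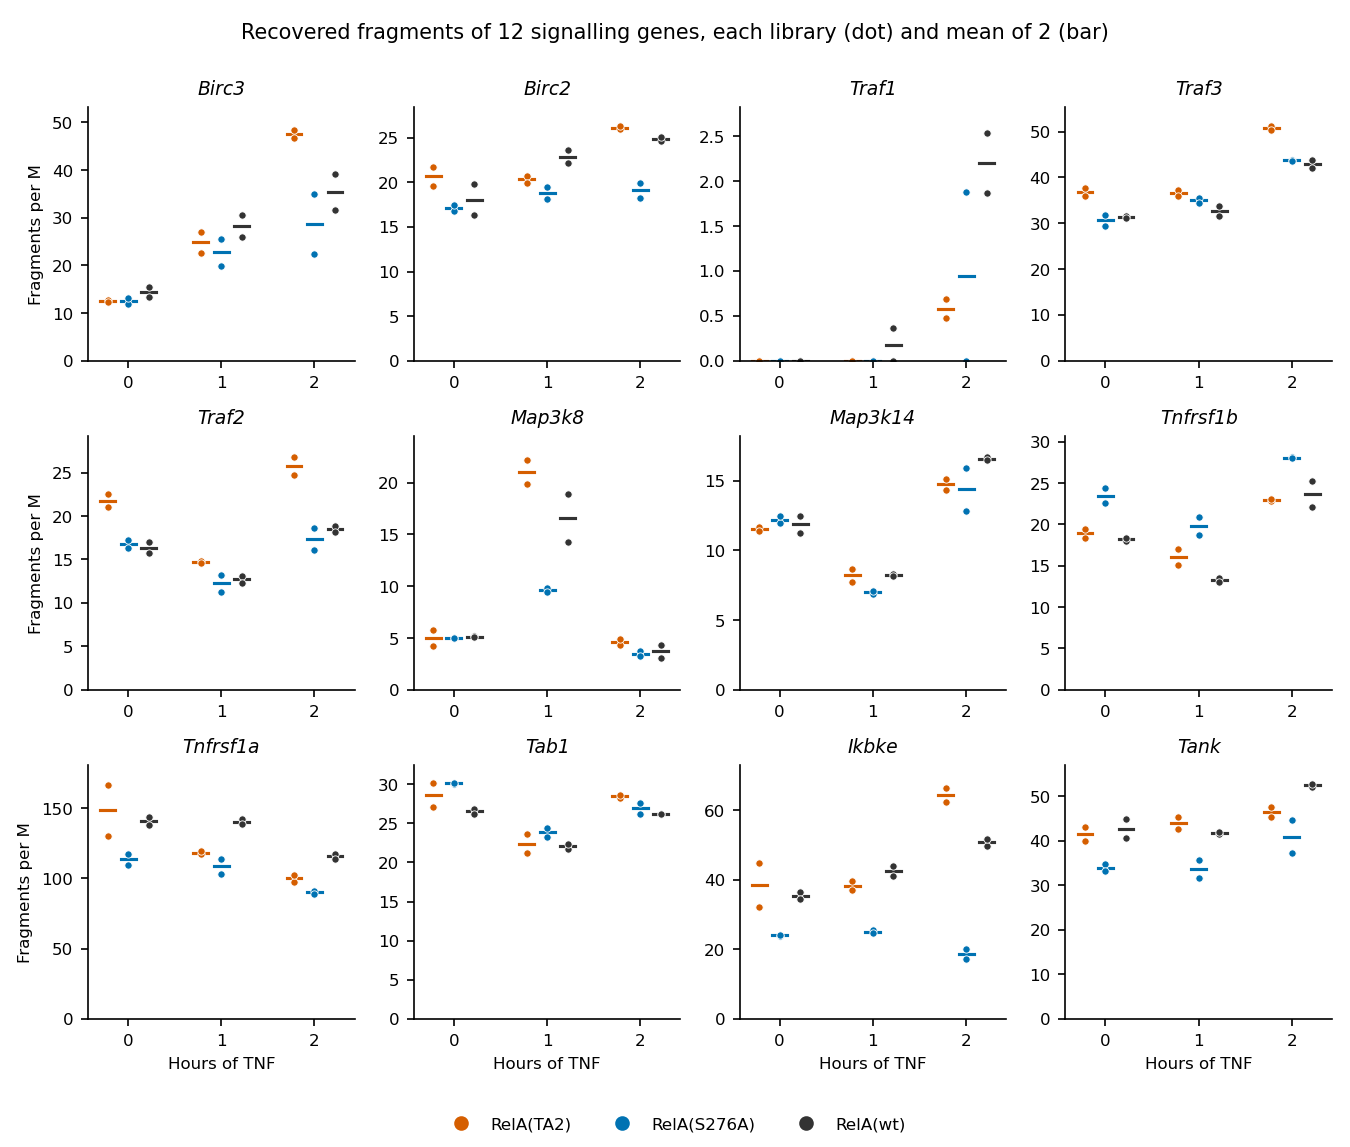
Fragments per M of 12 genes at 0, 1 and 2 h of TNFα in RelA(TA2) (orange), RelA(S276A) (blue) and RelA(wt) cells (black); dots are libraries and bars the mean of 2. Birc3 rises over both hours, Map3k8 peaks at 1 h, Traf2, Map3k14, Tnfrsf1b and Tab1 are lowest at 1 h, and Ikbke is lowest in RelA(S276A) cells at each time.

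Of the adaptors and death-arm genes, Ripk1 and Tradd were lower at 2 h on fragments, and none changed with TNFα on FPKM in the averages over lines (limma, adjusted p of 0.251 or more). Ripk1, the kinase and scaffold that carries ubiquitin chains in the receptor complex, had 35.1 and 37.4 fragments per M at 0 h, 33.4 and 32.1 at 1 h and 31.1 and 29.5 at 2 h in RelA(TA2) cells. Ripk1 had 36.6 and 36.1, 32.6 and 32.6, and 27.8 and 31.9 at these times in RelA(S276A) cells, and 35.5 and 36.9, 34.8 and 35.4, and 30.6 and 29.6 at these times in RelA(wt) cells. All 6 libraries at 2 h were below all 6 at 0 h, and the change was -0.27 ± 0.038 on fragments (adjusted p = 0.000246), against -0.24 ± 0.14 on FPKM (adjusted p = 0.357). Tradd, the adaptor that binds the receptor's death domain, had 28.5 and 36.9 fragments per M at 0 h, 24.9 and 27.04 at 1 h and 23.5 and 26.9 at 2 h in RelA(TA2) cells. Tradd had 22.04 and 22.1, 25.2 and 19.2, and 20.2 and 19.2 at these times in RelA(S276A) cells, and 23.5 and 26.4, 24.8 and 25.6, and 22.4 and 21.3 at these times in RelA(wt) cells. Its change at 2 h was -0.24 ± 0.079 on fragments (adjusted p = 0.0363) with overlapping libraries, a call lost in 9 of 18 refits without 1 library. Fadd, the adaptor that brings in caspase-8, had 9.92 and 9.25 fragments per M at 0 h, 12.1 and 10.5 at 1 h and 11.3 and 12.01 at 2 h in RelA(TA2) cells. Fadd had 12.03 and 12.8, 13.5 and 12.7, and 12.8 and 9.67 at these times in RelA(S276A) cells, and 8.56 and 11.4, 10.8 and 9.37, and 10.3 and 10.7 at these times in RelA(wt) cells. Its libraries at 0, 1 and 2 h overlapped within each line except RelA(TA2), where the 0 h pair was the lowest. Casp8, the initiator caspase of the pathway, had 48.5 and 42.3 fragments per M at 0 h, 48.5 and 48.5 at 1 h and 51.2 and 47.3 at 2 h in RelA(TA2) cells. Casp8 had 48.6 and 47.3, 51.9 and 48.97, and 46.9 and 48.95 at these times in RelA(S276A) cells, and 47.3 and 42.3, 44.1 and 46.3, and 41.2 and 45.1 at these times in RelA(wt) cells. In RelA(S276A) against RelA(wt) cells both were slightly higher on fragments, Fadd with a log2 difference of 0.25 ± 0.086 (adjusted p = 0.0336) and Casp8 with a log2 difference of 0.14 ± 0.045 (adjusted p = 0.0296), with overlapping libraries and with 8 and 6 of the 18 refits losing the call. Neither passed on FPKM (adjusted p = 0.213 and 0.305).

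The TRAF genes split by time: Traf3 and Traf5 rose at 2 h, Traf2 was lower at 1 h, and Traf1 was listed above 0 mainly at 2 h. Traf3, which encodes a TRAF that holds the NF-κB-inducing kinase NIK in check, had 4.97 and 4.76 FPKM at 0 h, 4.84 and 4.53 at 1 h and 6.74 and 6.51 at 2 h in RelA(TA2) cells, 4.17 and 3.87, 4.75 and 4.53, and 5.75 and 5.64 at these times in RelA(S276A) cells, and 4.08 and 3.98, 4.46 and 4.11, and 5.305 and 5.49 at these times in RelA(wt) cells. These libraries held 37.7 and 36.00 fragments per M at 0 h, 37.2 and 35.9 at 1 h and 51.1 and 50.3 at 2 h in RelA(TA2) cells, 31.7 and 29.5, 35.6 and 34.4, and 43.7 and 43.6 at these times in RelA(S276A) cells, and 31.5 and 31.1, 33.8 and 31.6, and 42.1 and 43.8 at these times in RelA(wt) cells. All 6 libraries at 2 h were above all 6 at 0 h on both scales, the change being 0.42 ± 0.059 on FPKM (adjusted p = 0.00159) and 0.47 ± 0.031 on fragments (adjusted p = 8.72e-07), a 1.39-fold rise in fragments. It was also higher in RelA(TA2) cells than in RelA(wt) cells, with a log2 difference of 0.21 ± 0.059 on FPKM (adjusted p = 0.0433) and 0.21 ± 0.031 on fragments (adjusted p = 0.000268). There the FPKM call was lost in 15 of 18 refits without 1 library and had an adjusted p of 0.0508 with median-of-ratios scaling and 0.0578 with quantile normalization. With the highest isoform alone the FPKM difference was -0.15, on the other side of 0.

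Traf1, an NF-κB target that forms mixed complexes with TRAF2, had 0 and 0 FPKM at 0 h, 0 and 0 at 1 h and 3.65 and 2.69 at 2 h in RelA(TA2) cells, 0 and 0, 0 and 0, and 2.84 and 0 at these times in RelA(S276A) cells, and 0 and 0, 1.07 and 0, and 3.66 and 1.41 at these times in RelA(wt) cells. There were 0 and 0 fragments per M at 0 h, 0 and 0 at 1 h and 0.476 and 0.683 at 2 h in RelA(TA2) cells, 0 and 0, 0 and 0, and 1.88 and 0 at these times in RelA(S276A) cells, and 0 and 0, 0.361 and 0, and 2.54 and 1.87 at these times in RelA(wt) cells. It was listed at 0 in all 6 libraries at 0 h and in 5 of 6 at 1 h, and was above 0 in 5 of 6 at 2 h, the exception being the second RelA(S276A) library. It passed the minimum of 1 FPKM in 2 libraries through its 2 h libraries, so its calls at 2 h were fixed by the filter and are not given as tests, and no fold is given against a group listed at 0. Traf5, a relative of TRAF2, had 2.73 and 3.06 FPKM at 0 h, 2.28 and 2.01 at 1 h and 4.05 and 3.996 at 2 h in RelA(TA2) cells, 2.403 and 3.36, 3.02 and 2.49, and 4.34 and 5.26 at these times in RelA(S276A) cells, and 3.16 and 3.96, 3.47 and 3.05, and 4.18 and 5.66 at these times in RelA(wt) cells. Its fragments were few, with 2.81 and 2.75 fragments per M at 0 h, 2.38 and 1.803 at 1 h and 4.13 and 4.26 at 2 h in RelA(TA2) cells, 2.41 and 2.07, 3.099 and 2.59, and 4.304 and 5.43 at these times in RelA(S276A) cells, and 3.42 and 4.27, 3.53 and 3.204, and 4.62 and 6.01 at these times in RelA(wt) cells. Within every line the 2 h pair was above the 0 h pair, and the change was 0.49 ± 0.12 on FPKM (adjusted p = 0.0235) and 0.63 ± 0.10 on fragments (adjusted p = 0.000686). The FPKM call had an adjusted p of 0.0599 without RelA(wt) 0 h replicate 1, 0.0605 without RelA(wt) 2 h replicate 2, 0.0503 without RelA(TA2) 2 h replicate 1, 0.0578 without RelA(S276A) 0 h replicate 1 and 0.0566 without RelA(S276A) 2 h replicate 2, the change then being 0.45, 0.43, 0.49, 0.43 and 0.45. On fragments Traf5 was lower in RelA(TA2) (-0.43 ± 0.10, adjusted p = 0.00648) and RelA(S276A) (-0.33 ± 0.10, adjusted p = 0.0235) than in RelA(wt) cells, the second call being lost in 6 of 18 refits.

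Traf2, the TRAF that brings the cIAPs to the receptor, had 22.5 and 21.1 fragments per M at 0 h, 14.8 and 14.6 at 1 h and 26.8 and 24.7 at 2 h in RelA(TA2) cells. Traf2 had 16.3 and 17.2, 13.3 and 11.2, and 18.6 and 16.1 at these times in RelA(S276A) cells, and 17.01 and 15.7, 13.1 and 12.3, and 18.9 and 18.2 at these times in RelA(wt) cells. The 6 libraries at 1 h were all below the 6 at 0 h, with a log2 difference of -0.45 ± 0.055 on fragments (adjusted p = 0.000167), and the 2 h pairs lay above the 0 h pairs or, in RelA(S276A) cells, overlapped them. The 1 h change in FPKM was -0.34 ± 0.26 (adjusted p = 0.629), with a range of 2.72 to 18.3 FPKM over the libraries. It was higher in RelA(TA2) cells than in RelA(wt) cells on fragments, with a log2 difference of 0.36 ± 0.055 (adjusted p = 0.000415). Traf4, a more distant TRAF, had 45.3 and 50.8 fragments per M at 0 h, 38.5 and 43.4 at 1 h and 39.2 and 36.2 at 2 h in RelA(TA2) cells. Traf4 had 39.03 and 40.2, 52.5 and 46.5, and 41.04 and 41.8 at these times in RelA(S276A) cells, and 40.2 and 41.3, 51.04 and 46.2, and 35.96 and 35.8 at these times in RelA(wt) cells. It was lower at 2 h on fragments, with a log2 difference of -0.15 ± 0.047 (adjusted p = 0.0254), with overlapping libraries and a call lost in 7 of 18 refits. At 1 h it was higher within RelA(S276A) cells (0.32 ± 0.082, adjusted p = 0.0457), a call lost in 11 of 18 refits (adjusted p up to 0.233). Traf6, which serves interleukin-1 and Toll-like receptors, had 29.5 and 28.1 fragments per M at 0 h, 29.9 and 29.5 at 1 h and 26.3 and 25.5 at 2 h in RelA(TA2) cells. Traf6 had 25.01 and 23.9, 26.4 and 29.3, and 23.1 and 27.98 at these times in RelA(S276A) cells, and 26.2 and 28.7, 30.6 and 34.5, and 28.4 and 28.7 at these times in RelA(wt) cells. TNFα left it without a call at 1 h or 2 h, and it was lower in RelA(S276A) than in RelA(wt) cells on fragments, with a log2 difference of -0.18 ± 0.053 (adjusted p = 0.0169). That call had an adjusted p of 0.0508 without RelA(wt) 0 h replicate 2 (-0.16) and 0.0526 without RelA(wt) 1 h replicate 2 (-0.15).

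Promoter windows are shown for Traf3 and Tank, which both rose at 2 h on fragments and carry the κB consensus there, and for Birc3, the member with the largest rise at 2 h in fragments of the genes above 0 throughout. The windows are RefSeq's (GRCm38.p6), 250 bases before to 50 after a transcript start, 5′ to 3′ on the gene's strand, with any match to the κB consensus in capitals. They lie at chr12:111166120-111166419 (plus strand) for Traf3, chr2:61592847-61593146 (plus strand, 1 of its 4 windows) for Tank and chr9:7873121-7873420 (minus strand) for Birc3. Of the 4 Tank windows, the 1 with the most matches was taken. It lies inside the gene, which begins at 61578586, and which start these cells used was not tested.
Traf3: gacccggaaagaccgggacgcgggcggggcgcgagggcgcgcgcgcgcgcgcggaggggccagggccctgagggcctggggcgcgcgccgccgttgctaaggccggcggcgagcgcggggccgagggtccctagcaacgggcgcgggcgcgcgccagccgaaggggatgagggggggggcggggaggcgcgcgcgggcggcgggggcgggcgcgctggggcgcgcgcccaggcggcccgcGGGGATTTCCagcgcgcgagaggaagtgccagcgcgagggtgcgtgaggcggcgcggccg
Tank: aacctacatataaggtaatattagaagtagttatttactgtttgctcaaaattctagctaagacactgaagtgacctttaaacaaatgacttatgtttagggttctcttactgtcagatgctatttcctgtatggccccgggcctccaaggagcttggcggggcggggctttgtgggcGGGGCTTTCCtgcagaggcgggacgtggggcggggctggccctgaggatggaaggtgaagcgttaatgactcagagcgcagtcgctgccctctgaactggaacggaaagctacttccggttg
Birc3: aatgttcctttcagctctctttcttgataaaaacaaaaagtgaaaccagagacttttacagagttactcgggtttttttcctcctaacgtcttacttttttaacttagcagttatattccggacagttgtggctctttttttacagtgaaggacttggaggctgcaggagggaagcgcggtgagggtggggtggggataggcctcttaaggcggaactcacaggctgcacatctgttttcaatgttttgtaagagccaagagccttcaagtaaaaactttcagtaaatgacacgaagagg
The match began 10 bases before the start in Traf3 and 72 bases before it in Tank, and both strands were searched. Of the 36 genes 31 had a window, and 3 of these held the consensus (Map3k7, Tank and Traf3), beside 5.14% of all genes and 4.51% of all windows of this length. A match is a description of the letters in a window, and none in the Birc3 window says only that they are not in these 300 bases.

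Of the cIAP ubiquitin ligases, Birc3 rose at both times and Birc2 at 2 h on fragments, and Birc3 rose at 2 h on FPKM. Birc3, which encodes cIAP2 and is a known NF-κB target, had 4.52 and 4.49 FPKM at 0 h, 6.22 and 7.67 at 1 h and 9.604 and 11.2 at 2 h in RelA(TA2) cells, 4.02 and 4.18, 6.28 and 8.22, and 11.1 and 5.97 at these times in RelA(S276A) cells, and 5.13 and 3.67, 5.33 and 6.72, and 11.3 and 8.07 at these times in RelA(wt) cells. The same libraries gave 12.8 and 12.3 fragments per M at 0 h, 27.03 and 22.6 at 1 h and 48.4 and 46.8 at 2 h in RelA(TA2) cells, 11.97 and 13.3, 19.9 and 25.5, and 22.4 and 34.9 at these times in RelA(S276A) cells, and 15.5 and 13.4, 30.7 and 25.99, and 31.6 and 39.1 at these times in RelA(wt) cells. On both scales all 6 libraries at 1 h and all 6 at 2 h lay above all 6 at 0 h. The change was 0.58 ± 0.16 on FPKM (adjusted p = 0.0831) and 0.91 ± 0.11 on fragments (adjusted p = 0.000167) at 1 h and 1.03 ± 0.16 on FPKM (adjusted p = 0.00269) and 1.42 ± 0.11 on fragments (adjusted p = 3.78e-06) at 2 h, a 1.87-fold and a 2.68-fold rise in fragments. On fragments the rise at 2 h was 1.89 in RelA(TA2), 1.12 in RelA(S276A) and 1.26 in RelA(wt) cells, and the difference between RelA(TA2) and RelA(wt) cells of 0.62 ± 0.28 did not pass (adjusted p = 0.342). Birc2, which encodes cIAP1 and lies 13445 bases from Birc3 on chromosome 9, had 21.8 and 19.6 fragments per M at 0 h, 20.7 and 19.96 at 1 h and 25.9 and 26.3 at 2 h in RelA(TA2) cells. Birc2 had 16.8 and 17.4, 18.1 and 19.5, and 18.2 and 19.9 at these times in RelA(S276A) cells, and 19.8 and 16.3, 23.6 and 22.1, and 24.6 and 25.02 at these times in RelA(wt) cells. Its level was higher at 2 h with a log2 difference of 0.31 ± 0.053 on fragments (adjusted p = 0.000801), with overlapping libraries, and over the times it was lower in RelA(S276A) than in RelA(wt) cells with a log2 difference of -0.24 ± 0.053 (adjusted p = 0.00337). Neither passed on FPKM (adjusted p = 0.695 and 0.806). The RelA(S276A) pairs of Birc2 at 1 h and 2 h lay below the RelA(wt) pairs.

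For LUBAC, which joins ubiquitin head to tail, the scales differed. Sharpin, an accessory subunit, had 12.6 and 14.4 FPKM at 0 h, 12.6 and 12.5 at 1 h and 39.1 and 40.8 at 2 h in RelA(TA2) cells, 14.3 and 20.3, 13.4 and 14.1, and 11.8 and 18.4 at these times in RelA(S276A) cells, and 13.6 and 16.2, 17.5 and 12.7, and 36.4 and 48.6 at these times in RelA(wt) cells. In recovered fragments the libraries held 23.9 and 25.4 fragments per M at 0 h, 22.01 and 22.1 at 1 h and 23.2 and 20.6 at 2 h in RelA(TA2) cells, 29.04 and 27.3, 27.8 and 25.5, and 24.2 and 26.7 at these times in RelA(S276A) cells, and 28.3 and 32.2, 29.8 and 28.6, and 30.2 and 29.8 at these times in RelA(wt) cells. The FPKM of RelA(TA2) and RelA(wt) cells at 2 h stood far above all other libraries, while the fragments did not. In those 4 libraries a second piece was assembled, with 25.0 to 36.0 FPKM. It had 300 and 299 bases in RelA(TA2) and 410 and 295 in RelA(wt) cells. A limit of at least 300 bases took out the pieces of 299 and 295 bases and kept the others. With that limit the averaged change at 2 h was 0.26 (adjusted p = 0.712). The averaged change was 0.93 ± 0.14 on FPKM (adjusted p = 0.00188) and -0.11 ± 0.048 on fragments (adjusted p = 0.103). Within RelA(TA2) cells it was 1.53 ± 0.24 on FPKM (adjusted p = 0.00536) and -0.17 ± 0.084 on fragments (adjusted p = 0.158). Within RelA(wt) cells it was 1.47 ± 0.24 on FPKM (adjusted p = 0.00959) and -0.0095 ± 0.084 on fragments (adjusted p = 0.996), the FPKM call being lost without RelA(wt) 0 h replicate 1 (1.34, adjusted p = 0.0574) or RelA(wt) 2 h replicate 2 (1.26, adjusted p = 0.0654). On fragments Sharpin was lower in RelA(TA2) cells than in RelA(wt) cells, without overlap and with a log2 difference of -0.38 ± 0.048 (adjusted p = 0.000109), and lower in RelA(S276A) cells with a log2 difference of -0.15 ± 0.048 (adjusted p = 0.0246), a call lost in 6 of 18 refits. Rbck1, which encodes the subunit HOIL-1, had 124 and 123 fragments per M at 0 h, 108 and 108 at 1 h and 95.9 and 105 at 2 h in RelA(TA2) cells. Rbck1 had 127 and 129, 134 and 116, and 112 and 100.2 at these times in RelA(S276A) cells, and 109 and 117, 115 and 112, and 105 and 107 at these times in RelA(wt) cells. It was lower at 2 h on fragments, with a log2 difference of -0.22 ± 0.041 (adjusted p = 0.0015), with overlapping libraries.

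Rnf31, which encodes the catalytic subunit HOIP, had 35.8 and 38.8 fragments per M at 0 h, 16.9 and 15.7 at 1 h and 35.1 and 33.6 at 2 h in RelA(TA2) cells, 31.5 and 26.4, 21.5 and 15.9, and 19.3 and 20.1 at these times in RelA(S276A) cells, and 27.1 and 21.5, 35.1 and 30.1, and 24.6 and 30.6 at these times in RelA(wt) cells. Summed over transcripts it had 5.39 and 5.79 FPKM at 0 h, 4.52 and 4.21 at 1 h and 5.28 and 4.54 at 2 h in RelA(TA2) cells, 4.75 and 4.703, 4.75 and 4.58, and 10.4 and 5.54 at these times in RelA(S276A) cells, and 5.01 and 5.67, 5.18 and 4.37, and 5.65 and 6.305 at these times in RelA(wt) cells. In fragments the RelA(TA2) pair at 1 h was the lowest of that line, and the RelA(wt) pair at 1 h was above its 0 h pair. The response at 1 h differed between these lines with a log2 difference of -1.59 ± 0.23 on fragments (adjusted p = 0.00693), whereas on FPKM the difference was -0.17 ± 0.32 (adjusted p = 0.92). Its transcripts were assembled as one with those of the neighbour Irf9 in 11 of the 18 libraries. These included both RelA(TA2) libraries at 0 h, both RelA(wt) libraries at 1 h and the first RelA(wt) library at 0 h. They included neither RelA(TA2) library at 1 h. The joining thus ran along the 1 h response that was compared, and the fragments of Rnf31 are uncertain. On fragments Rnf31 was lower at 1 h over the lines (-0.46 ± 0.092, adjusted p = 0.00494) and in RelA(S276A) against RelA(wt) cells (-0.34 ± 0.092, adjusted p = 0.0116). Joining varied along these comparisons too. At 0 h only the second RelA(wt) library was not joined. At 1 h the second RelA(S276A) library was not joined either, nor was any RelA(S276A) library at 2 h. Joined libraries held 21.5 to 38.8 fragments per M and the others 15.7 to 24.6, so neither call can be told apart from the joining.

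Of TAK1 and its partners, Tab1 was lower at 1 h and Tab2 at 2 h in the averages over lines, the second on fragments alone. Tab1, which binds and activates TAK1, had 9.96 and 9.16 FPKM at 0 h, 7.504 and 6.82 at 1 h and 9.600 and 8.97 at 2 h in RelA(TA2) cells, 9.500 and 9.91, 8.09 and 7.59, and 8.71 and 8.52 at these times in RelA(S276A) cells, and 8.63 and 8.63, 7.03 and 7.14, and 8.37 and 8.15 at these times in RelA(wt) cells. Recovered fragments were 30.2 and 27.1 fragments per M at 0 h, 23.7 and 21.2 at 1 h and 28.3 and 28.6 at 2 h in RelA(TA2) cells, 30.04 and 30.2, 24.4 and 23.3, and 27.6 and 26.2 at these times in RelA(S276A) cells, and 26.9 and 26.2, 21.8 and 22.4, and 26.3 and 26.2 at these times in RelA(wt) cells. All 6 libraries at 1 h were below all 6 at 0 h on both scales, with a log2 difference of -0.32 ± 0.052 on FPKM (adjusted p = 0.00497) and -0.31 ± 0.039 on fragments (adjusted p = 0.00018), and at 2 h the changes of -0.087 and -0.062 did not pass. Map3k7, which encodes TAK1, had 83.05 and 77.6 fragments per M at 0 h, 79.8 and 81.7 at 1 h and 83.6 and 76.1 at 2 h in RelA(TA2) cells. Map3k7 had 88.1 and 86.7, 80.8 and 89.05, and 86.05 and 87.1 at these times in RelA(S276A) cells, and 81.6 and 80.3, 75.6 and 76.3, and 77.7 and 76.2 at these times in RelA(wt) cells. Its libraries spanned only 1.18-fold, and the sole averaged call was a higher level in RelA(S276A) than in RelA(wt) cells on fragments, 0.15 ± 0.032 (adjusted p = 0.00327). Tab2, a ubiquitin-binding partner, had 179.7 and 181 fragments per M at 0 h, 167 and 162 at 1 h and 155 and 145 at 2 h in RelA(TA2) cells. Tab2 had 187 and 187, 172 and 184, and 173 and 189 at these times in RelA(S276A) cells, and 182 and 179.8, 177 and 181, and 159 and 159 at these times in RelA(wt) cells. Tab2 was lower at 2 h with a log2 difference of -0.17 ± 0.027 (adjusted p = 0.000737) on fragments, with overlapping libraries. The 2 h pair lay below the 0 h pair in RelA(TA2) and RelA(wt) cells, while in RelA(S276A) cells it lay on both sides of it. It was higher in RelA(S276A) than in RelA(wt) cells with a log2 difference of 0.074 ± 0.027 (adjusted p = 0.0488). That call was lost in 14 of 18 refits and with a replicate block (adjusted p = 0.0572). The Tab1 difference between these lines on fragments, 0.11 ± 0.039 (adjusted p = 0.0441), was lost in 12 of 18. Tab3, the other ubiquitin-binding partner, had 3.27 and 2.89 FPKM at 0 h, 2.78 and 2.78 at 1 h and 2.85 and 2.73 at 2 h in RelA(TA2) cells, 3.88 and 3.62, 3.58 and 3.66, and 3.91 and 4.24 at these times in RelA(S276A) cells, and 3.81 and 3.72, 3.63 and 6.66, and 3.503 and 3.596 at these times in RelA(wt) cells. The recovered fragments came to 22.2 and 19.3 fragments per M at 0 h, 19.2 and 19.7 at 1 h and 18.5 and 19.4 at 2 h in RelA(TA2) cells, 26.4 and 24.7, 24.5 and 24.9, and 27.2 and 29.6 at these times in RelA(S276A) cells, and 26.4 and 24.4, 24.4 and 24.2, and 23.7 and 25.4 at these times in RelA(wt) cells. All 6 RelA(TA2) libraries were below all 6 RelA(wt) libraries on both scales, with a log2 difference of -0.43 ± 0.12 on FPKM (adjusted p = 0.0427) and -0.32 ± 0.046 on fragments (adjusted p = 0.000216). The FPKM call was lost in 16 of 18 refits, the fragment call in 0, and with a replicate block the FPKM adjusted p was 0.054.

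Of the IKK subunits, Ikbkg and Ikbkb were lower at 2 h on fragments, and Ikbkg differed between lines. Ikbkg, which encodes the regulatory subunit NEMO, had 38.00 and 41.98 fragments per M at 0 h, 39.6 and 37.9 at 1 h and 32.9 and 32.9 at 2 h in RelA(TA2) cells. Ikbkg had 48.7 and 46.9, 41.6 and 45.4, and 40.2 and 40.1 at these times in RelA(S276A) cells, and 55.2 and 49.9, 51.4 and 52.04, and 44.05 and 43.9 at these times in RelA(wt) cells. It was lower at 2 h with a log2 difference of -0.26 ± 0.037 on fragments (adjusted p = 0.000271), and all 6 RelA(TA2) libraries were below all 6 RelA(wt) libraries, with a log2 difference of -0.41 ± 0.037 on fragments (adjusted p = 7.87e-06). At each time the RelA(S276A) pair lay between those of the other lines, at -0.17 ± 0.037 (adjusted p = 0.00313) against RelA(wt) cells. On FPKM its libraries ran from 6.798 to 65.7, the highest being the second RelA(TA2) library at 1 h, where a piece of 152 bases held 57.6 FPKM and 12.6 fragments, and the 2 h and line differences did not pass (adjusted p = 0.991, 0.578 and 0.973). Ikbkb, which encodes the catalytic subunit that drives the canonical pathway, had 68.3 and 79.8 fragments per M at 0 h, 68.5 and 68.2 at 1 h and 59.5 and 64.3 at 2 h in RelA(TA2) cells. Ikbkb had 70.5 and 70.9, 74.7 and 71.7, and 62.2 and 66.4 at these times in RelA(S276A) cells, and 66.8 and 65.6, 72.7 and 73.1, and 63.4 and 65.4 at these times in RelA(wt) cells. Its change at 2 h was -0.14 ± 0.038 (adjusted p = 0.0124) on fragments, and with median-of-ratios scaling -0.088 (adjusted p = 0.101). Chuk, which encodes the other catalytic subunit, had 95.2 and 92.2 fragments per M at 0 h, 99.6 and 100.5 at 1 h and 99.8 and 93.4 at 2 h in RelA(TA2) cells. Chuk had 91.7 and 92.99, 86.8 and 101, and 98.5 and 107 at these times in RelA(S276A) cells, and 93.1 and 89.8, 89.4 and 92.2, and 88.02 and 89.4 at these times in RelA(wt) cells. It passed in no averaged comparison on either scale, and the 6 libraries on each side overlapped in all 4 of them.

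Of the IKK-related kinases, Ikbke carried the largest difference between lines. Ikbke, which encodes the inducible kinase IKKε, had 10.2 and 13.1 FPKM at 0 h, 10.9 and 12.4 at 1 h and 17.2 and 27.1 at 2 h in RelA(TA2) cells, 7.11 and 9.99, 7.42 and 7.32, and 5.07 and 8.33 at these times in RelA(S276A) cells, and 10.6 and 10.9, 25.9 and 16.7, and 30.3 and 20.3 at these times in RelA(wt) cells. This went with 32.3 and 44.8 fragments per M at 0 h, 37.1 and 39.5 at 1 h and 62.4 and 66.5 at 2 h in RelA(TA2) cells, 23.8 and 24.2, 25.5 and 24.7, and 17.2 and 19.9 at these times in RelA(S276A) cells, and 36.5 and 34.4, 41.1 and 43.9, and 49.8 and 51.8 at these times in RelA(wt) cells. All 6 RelA(S276A) libraries were below all 6 RelA(wt) libraries on both scales, the difference being -1.21 ± 0.18 on FPKM (adjusted p = 0.00154) and -0.91 ± 0.07 on fragments (adjusted p = 2.51e-06). Both calls were kept in all 18 refits. With TNFα at 2 h the pairs of RelA(TA2) and RelA(wt) cells were higher than at 0 h and the RelA(S276A) pair was lower, the changes being 0.75 ± 0.12 (adjusted p = 0.00121) in RelA(TA2), -0.36 ± 0.12 (adjusted p = 0.0866) in RelA(S276A) and 0.51 ± 0.12 (adjusted p = 0.0186) in RelA(wt) cells on fragments. The RelA(wt) call was lost without either library of its 0 h or 2 h pair (0.47 to 0.56, adjusted p up to 0.108). The response in RelA(S276A) minus that in RelA(wt) cells was -0.88 ± 0.17 on fragments (adjusted p = 0.0854) and did not pass. Averaged over the lines Ikbke was higher at 2 h, with a log2 difference of 0.56 ± 0.18 on FPKM (adjusted p = 0.0829) and 0.30 ± 0.07 on fragments (adjusted p = 0.00607).

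Tbk1, the constitutive relative of IKKε, had 61.6 and 54.7 fragments per M at 0 h, 56.2 and 60.3 at 1 h and 67.8 and 66.3 at 2 h in RelA(TA2) cells. Tbk1 had 52.95 and 56.2, 48.6 and 57.2, and 58.5 and 63.5 at these times in RelA(S276A) cells, and 61.6 and 55.8, 55.9 and 62.9, and 64.98 and 66.1 at these times in RelA(wt) cells. It was higher at 2 h on fragments, with a log2 difference of 0.17 ± 0.053 (adjusted p = 0.0227), a call lost in 6 of 18 refits. Tank, a scaffold for TBK1 and IKKε with 1 of its windows printed above, had 43.1 and 39.9 fragments per M at 0 h, 42.7 and 45.3 at 1 h and 47.7 and 45.5 at 2 h in RelA(TA2) cells. Tank had 34.8 and 33.1, 31.6 and 35.8, and 37.2 and 44.6 at these times in RelA(S276A) cells, and 44.9 and 40.5, 41.5 and 42.00, and 52.1 and 52.8 at these times in RelA(wt) cells. It rose at 2 h on fragments, with a log2 difference of 0.24 ± 0.052 (adjusted p = 0.00375), and was lower in RelA(S276A) than in RelA(wt) cells, with a log2 difference of -0.33 ± 0.052 (adjusted p = 0.000357), each RelA(S276A) pair lying below the RelA(wt) pair of its time. Azi2, another TBK1 adaptor, had 70.96 and 72.6 fragments per M at 0 h, 66.9 and 71.1 at 1 h and 62.5 and 55.3 at 2 h in RelA(TA2) cells. Azi2 had 77.2 and 74.6, 74.3 and 76.5, and 68.6 and 73.6 at these times in RelA(S276A) cells, and 78.9 and 73.05, 76.2 and 79.1, and 62.5 and 63.3 at these times in RelA(wt) cells. Its fragments were lower at 2 h, with a log2 difference of -0.22 ± 0.036 (adjusted p = 0.00079), and in RelA(TA2) against RelA(wt) cells, with a log2 difference of -0.12 ± 0.036 (adjusted p = 0.0245), the second call being lost in 5 of 18 refits. On FPKM none of these differences passed (adjusted p from 0.103 to 0.925).

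The MAP3K genes Map3k8 and Map3k14 moved in opposite directions at 1 h. Map3k8, which encodes TPL2, the kinase that feeds the ERK arm, had 4.22 and 5.82 fragments per M at 0 h, 19.9 and 22.2 at 1 h and 4.29 and 4.88 at 2 h in RelA(TA2) cells, 5.03 and 5.01, 9.85 and 9.42, and 3.78 and 3.22 at these times in RelA(S276A) cells, and 5.22 and 5.07, 18.9 and 14.3, and 3.04 and 4.36 at these times in RelA(wt) cells. Summed over transcripts it had 2.903 and 2.499 FPKM at 0 h, 8.02 and 8.19 at 1 h and 3.26 and 1.86 at 2 h in RelA(TA2) cells, 2.67 and 1.87, 3.25 and 3.48, and 2.78 and 7.22 at these times in RelA(S276A) cells, and 4.56 and 4.53, 7.14 and 6.49, and 5.09 and 1.902 at these times in RelA(wt) cells. In fragments all 6 libraries at 1 h were above all 6 at 0 h, with the RelA(S276A) pair the lowest of the 3 lines at 1 h, and by 2 h each line was near or below its 0 h pair. The change at 1 h was 1.48 ± 0.11 on fragments (adjusted p = 2.28e-06), a 2.79-fold rise, against 0.82 ± 0.25 on FPKM (adjusted p = 0.117). By line it was 1.98 ± 0.19 (adjusted p = 5.02e-05) in RelA(TA2), 0.88 ± 0.19 (adjusted p = 0.0153) in RelA(S276A) and 1.59 ± 0.19 (adjusted p = 0.000281) in RelA(wt) cells, the RelA(S276A) call being lost without any library of its 0 h or 1 h pair (0.85 to 0.91, adjusted p up to 0.0944). The response in RelA(S276A) minus that in RelA(wt) cells, -0.71 ± 0.26 on fragments (adjusted p = 0.952), did not pass. At 2 h it was lower than at 0 h on fragments, with a log2 difference of -0.34 ± 0.11 (adjusted p = 0.0281), a call lost in 8 of 18 refits and with median-of-ratios scaling (adjusted p = 0.0605).

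Map3k14, which encodes NIK, the kinase of the non-canonical pathway, had 11.7 and 11.4 fragments per M at 0 h, 8.69 and 7.76 at 1 h and 14.3 and 15.1 at 2 h in RelA(TA2) cells. Map3k14 had 11.9 and 12.5, 6.87 and 7.101, and 15.9 and 12.8 at these times in RelA(S276A) cells, and 12.5 and 11.2, 8.33 and 8.19, and 16.7 and 16.5 at these times in RelA(wt) cells. All 6 libraries at 1 h lay below and all 6 at 2 h above the 6 at 0 h. The changes were -0.57 ± 0.059 on fragments (adjusted p = 3.88e-05) at 1 h and 0.34 ± 0.059 on fragments (adjusted p = 0.000952) at 2 h, and neither call was lost in any of 18 refits. FPKM ran from 1.63 to 11.1 with 1 to 5 assembled transcripts, and the changes there did not pass (adjusted p = 0.844 and 0.679).

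In the MAP2K and MAP kinase arm, Mapk14 and Map2k7 fell and Mapk8 rose on FPKM in the averages over lines, and of these Mapk8 alone also passed on fragments. Mapk14, which encodes p38α, had 58.5 and 50.97 FPKM at 0 h, 25.7 and 26.6 at 1 h and 27.5 and 26.5 at 2 h in RelA(TA2) cells, 24.6 and 23.4, 26.2 and 24.8, and 24.5 and 24.7 at these times in RelA(S276A) cells, and 25.1 and 23.6, 27.5 and 26.4, and 23.7 and 23.6 at these times in RelA(wt) cells. These libraries held 107 and 104 fragments per M at 0 h, 97.5 and 102 at 1 h and 103 and 99.6 at 2 h in RelA(TA2) cells, 90.96 and 88.04, 96.6 and 90.2, and 92.3 and 92.5 at these times in RelA(S276A) cells, and 92.9 and 90.3, 101 and 97.8, and 86.5 and 89.1 at these times in RelA(wt) cells. The RelA(TA2) pair at 0 h stood far above all other libraries in FPKM, and these 2 libraries each had an extra assembled transcript, of 745 bases with 25.7 FPKM and of 582 bases with 19.2 FPKM. Within RelA(TA2) cells the change was -1.05 ± 0.08 on FPKM (adjusted p = 4.83e-05) and -0.078 ± 0.043 on fragments (adjusted p = 0.323) at 1 h, and -1.003 ± 0.08 on FPKM (adjusted p = 9.45e-05) and -0.055 ± 0.043 on fragments (adjusted p = 0.375) at 2 h. The responses of RelA(TA2) minus RelA(wt) cells were -1.19 ± 0.11 on FPKM (adjusted p = 0.000868) and -0.20 ± 0.061 on fragments (adjusted p = 0.137) at 1 h and -0.96 ± 0.11 on FPKM (adjusted p = 0.0055) and 0.0055 ± 0.061 on fragments (adjusted p = 0.993) at 2 h. The averaged changes were -0.27 ± 0.046 on FPKM (adjusted p = 0.00562) and 0.033 ± 0.025 on fragments (adjusted p = 0.444) at 1 h and -0.34 ± 0.046 on FPKM (adjusted p = 0.00136) and -0.023 ± 0.025 on fragments (adjusted p = 0.499) at 2 h. Averaged over the times, Mapk14 was higher in RelA(TA2) cells than in RelA(wt) cells on both scales, with a log2 difference of 0.43 ± 0.046 on FPKM (adjusted p = 0.000195) and 0.14 ± 0.025 on fragments (adjusted p = 0.00116).

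**Figure D5:**
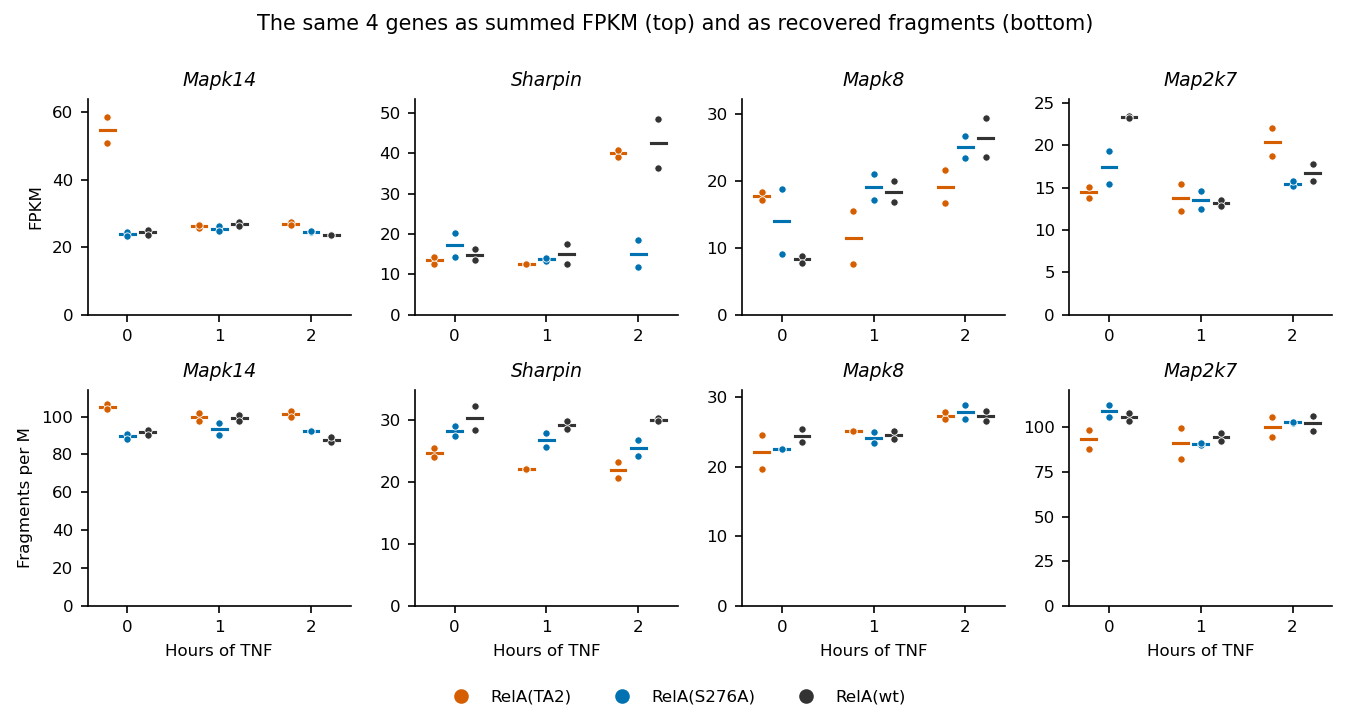
Mapk14, Sharpin, Mapk8 and Map2k7 as summed FPKM (top) and as recovered fragments per M (bottom) at 0, 1 and 2 h of TNFα in RelA(TA2) (orange), RelA(S276A) (blue) and RelA(wt) cells (black); dots are libraries and bars the mean of 2. The RelA(TA2) pair of Mapk14 at 0 h and the RelA(TA2) and RelA(wt) pairs of Sharpin at 2 h stand apart in FPKM and not in fragments.

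Mapk8, which encodes JNK1, had 18.4 and 17.2 FPKM at 0 h, 15.5 and 7.62 at 1 h and 21.7 and 16.7 at 2 h in RelA(TA2) cells, 18.8 and 9.13, 17.1 and 21.03, and 23.4 and 26.7 at these times in RelA(S276A) cells, and 8.81 and 7.79, 16.8 and 20.04, and 29.4 and 23.5 at these times in RelA(wt) cells. There were 24.6 and 19.6 fragments per M at 0 h, 25.1 and 25.2 at 1 h and 26.8 and 27.9 at 2 h in RelA(TA2) cells, 22.5 and 22.6, 23.4 and 24.96, and 26.8 and 28.8 at these times in RelA(S276A) cells, and 25.4 and 23.6, 23.98 and 25.1, and 26.6 and 27.9 at these times in RelA(wt) cells. All 6 libraries at 2 h were above all 6 at 0 h in fragments and overlapped in FPKM, the change being 0.87 ± 0.20 on FPKM (adjusted p = 0.022) and 0.25 ± 0.053 on fragments (adjusted p = 0.00315). The averaged FPKM call had an adjusted p of 0.0577 without RelA(wt) 2 h replicate 1, 0.0533 without RelA(wt) 0 h replicate 2, 0.0571 without RelA(TA2) 2 h replicate 1 and 0.0519 without RelA(S276A) 2 h replicate 2, the change then being 0.82, 0.84, 0.81 and 0.84. Within RelA(wt) cells the change was 1.61 ± 0.34 on FPKM (adjusted p = 0.0451) and 0.16 ± 0.092 on fragments (adjusted p = 0.318), the FPKM call being lost in 14 of 18 refits. Map2k7, which encodes the JNK kinase MKK7, had 15.1 and 13.8 FPKM at 0 h, 15.4 and 12.3 at 1 h and 22.03 and 18.8 at 2 h in RelA(TA2) cells, 15.5 and 19.4, 12.5 and 14.6, and 15.2 and 15.7 at these times in RelA(S276A) cells, and 23.5 and 23.2, 13.6 and 12.8, and 17.8 and 15.8 at these times in RelA(wt) cells. The same libraries gave 98.6 and 87.7 fragments per M at 0 h, 82.1 and 99.7 at 1 h and 94.8 and 106 at 2 h in RelA(TA2) cells, 106 and 112, 90.3 and 90.9, and 103 and 103 at these times in RelA(S276A) cells, and 104 and 108, 92.5 and 96.5, and 98.1 and 106 at these times in RelA(wt) cells. The RelA(wt) pair at 0 h was the highest in FPKM and not in fragments, the change at 1 h being -0.80 ± 0.14 on FPKM (adjusted p = 0.0192) and -0.16 ± 0.089 on fragments (adjusted p = 0.392) in RelA(wt) cells and -0.41 ± 0.083 on FPKM (adjusted p = 0.0182) and -0.16 ± 0.051 on fragments (adjusted p = 0.0646) over the lines. The averaged FPKM call was lost without RelA(wt) 1 h replicate 2 (-0.39, adjusted p = 0.0502), and the RelA(wt) call without any library of its 0 h or 1 h pair. Its transcripts were joined with the neighbour Gm14378 in 15 of 18 libraries, so its values are uncertain.

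Map2k4, which encodes the JNK and p38 kinase MKK4, had 95.4 and 79.5 fragments per M at 0 h, 96.4 and 87.96 at 1 h and 111 and 102 at 2 h in RelA(TA2) cells. Map2k4 had 98.9 and 101, 89.3 and 109.5, and 128 and 129 at these times in RelA(S276A) cells, and 98.4 and 103, 100.2 and 99.3, and 118 and 114 at these times in RelA(wt) cells. Its fragments rose at 2 h, with a log2 difference of 0.28 ± 0.056 (adjusted p = 0.00239), with the 2 h pair above the 0 h pair in each line. Mapk9, which encodes JNK2, had 61.8 and 68.4 fragments per M at 0 h, 61.1 and 64.6 at 1 h and 54.2 and 51.3 at 2 h in RelA(TA2) cells. Mapk9 had 68.5 and 70.4, 66.95 and 69.6, and 63.3 and 69.5 at these times in RelA(S276A) cells, and 77.4 and 76.1, 77.3 and 75.2, and 70.04 and 72.5 at these times in RelA(wt) cells. It was lower at 2 h on fragments, with a log2 difference of -0.16 ± 0.035 (adjusted p = 0.00421), and lower in RelA(TA2) cells than in RelA(wt) cells without overlap and with a log2 difference of -0.32 ± 0.035 (adjusted p = 3.23e-05), and in RelA(S276A) cells, with a log2 difference of -0.13 ± 0.035 (adjusted p = 0.00838). On FPKM neither gene passed in an averaged comparison.

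Of 60 further pathway genes in 5 lists, 56 were tested. On FPKM 8 were higher and 2 lower at 1 h and 15 higher and 1 lower at 2 h, averaged over the lines, and on fragments 18 and 6, then 24 and 8. Of all genes tested, 1.92% were higher and 2.43% lower at 1 h and 3.75% and 5.03% at 2 h on FPKM, and 5.65% and 10.3%, then 12% and 25.2%, on fragments. Among 16 genes of NF-κB, IκB and feedback, 4 were higher and 1 lower at 1 h and 8 higher and 0 lower at 2 h on FPKM (11 and 1 on fragments). Tnfaip3, which encodes the ubiquitin editor A20, changed by 4.78 ± 0.14 (adjusted p = 9.78e-09) at 1 h on FPKM. Nfkbia, which encodes IκBα, changed by 3.71 ± 0.19 (adjusted p = 5.31e-07) at 1 h. Nfkbiz, another IκB family gene, changed by 2.68 ± 0.20 (adjusted p = 1.18e-05) at 1 h. In the MAP kinase list of 15 tested genes, 2 were higher and 1 lower at 1 h and 3 higher and 0 lower at 2 h, with the transcription factor genes Junb (2.32 ± 0.12, adjusted p = 5.96e-07) and Jun (1.76 ± 0.10, adjusted p = 2.06e-06) the highest at 1 h.

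Among 7 tested ligands and related receptors 1 was higher at 1 h and 2 at 2 h, and the death receptor gene Fas was higher at 2 h (1.26 ± 0.09, adjusted p = 1.47e-05), as was Tnfrsf12a (0.53 ± 0.089, adjusted p = 0.00409). At 1 h in the RelA(wt) line the ligand genes Tnfsf9 (2.23 ± 0.14, adjusted p = 7.09e-06) and Tnf itself (1.92 ± 0.32, adjusted p = 0.0115) were higher. Of 8 death-arm genes, 1 was higher and 1 lower at 2 h, Bid (0.63 ± 0.16, adjusted p = 0.0357) being the higher. Of 10 ubiquitin enzymes and adaptors, 1 was higher and 0 lower at each of 1 h and 2 h. Between lines the scales differed. Of the 56, 2 were higher and 5 lower in RelA(TA2) cells than in RelA(wt) cells on FPKM, Sqstm1, which encodes p62, among the lower (-0.32 ± 0.042, adjusted p = 0.000804), while 15 were higher and 10 lower on fragments, beside 5.71% and 6.02% of all genes on FPKM and 20% and 20.4% on fragments. In RelA(S276A) against RelA(wt) cells 1 was higher and 7 lower on FPKM and 10 higher and 18 lower on fragments, beside 7.21% and 5.38%, and 23.5% and 20.1%, of all genes.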

How the data were processed

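Poly-A mRNA of 18 cultures was sequenced. According to the submitters' processing notes, base calls came from CASAVA 1.8.2, alignment to mm10 (GRCm38) from TopHat2 2.0.5 on Bowtie2 2.0.0.7, and transcripts from Cufflinks 2.0.2, run by the authors on each library. They deposited FPKM per assembled transcript, with confidence limits, in 1 annotation file a library, plus a merged annotation.

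A gene qualified for a transcript when the bases they shared made up at least 50% of the transcript or of the gene's exons. The whole transcript went to the qualifying gene that shared most bases with it, and FPKM were summed by gene. Where transcripts ran across neighbours, both genes were called joined. Fragments per transcript were recovered from the FPKM and its upper limit (of values below 500, 88.9 to 90.2% lay within 0.02 of a whole number) and expressed per 1000000 fragments in genes. Genes reaching 1 FPKM in 2 or more libraries entered limma 3.58.1 (R 4.3.3) on log2(FPKM + 0.5), which understates changes of low genes, in 1 fit of 9 condition means with 9 residual degrees of freedom and an intensity trend. The 14 comparisons were each adjusted by Benjamini-Hochberg over 12236 genes, and the same fit was run on recovered fragments with 0.5 added. Python 3.11.15, pandas 2.3.3, numpy 2.4.6 and matplotlib 3.10.9 did the rest. The fit was tested on simulated data. Replicate numbers were not used as a block, and p-values measure the spread between these libraries.

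All listed genes may be named. Further pathway genes are named up to 4 a list by smallest adjusted p. The genes and lists were chosen with earlier results of these data known. Alternatives covered the amount added, filters, scaling, the highest isoform, joined genes, short transcripts, a replicate block and leaving out each library. Promoter sequences came from RefSeq (GRCm38.p6).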

Additional observations from a re-analysis of the deposited data

Results flagged for a closer look

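The 1 h response of Rnf31 differed between RelA(TA2) and RelA(wt) cells by -1.59 on fragments (limma, adjusted p = 0.00693) and by -0.17 on FPKM (adjusted p = 0.92). The gene was joined with Irf9 in 11 of 18 libraries, in both RelA(TA2) libraries at 0 h and in neither at 1 h. The response of Mapk14 differed between RelA(TA2) and RelA(wt) cells by -1.19 at 1 h (adjusted p = 0.000868) and -0.96 at 2 h (adjusted p = 0.0055) on FPKM, against -0.20 (adjusted p = 0.137) and 0.0055 (adjusted p = 0.993) on fragments.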

How the results depend on the processing

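Recovered fragments in place of FPKM moved the number of changed genes most. In the averages it was 7 in place of 3 at 1 h, 23 in place of 8 at 2 h, 9 in place of 3 for RelA(TA2) and 16 in place of 3 for RelA(S276A) against RelA(wt). Within RelA(TA2) cells it was 7 at 1 h and 17 at 2 h, within RelA(S276A) cells 7 and 8, within RelA(wt) cells 6 and 11, and for the 2 h response of RelA(TA2) 0. On that scale the sign turned for Mapk14 at 1 h over the lines (0.033) and in its 2 h response (0.0055), and for Sharpin at 2 h over the lines (-0.11), in RelA(TA2) (-0.17) and in RelA(wt) cells (-0.0095). With the highest isoform alone, the counts were 1 at 1 h and 5 at 2 h over the lines, 1 for RelA(TA2) against RelA(wt), 0 and 1 in RelA(wt) cells, 0 in RelA(TA2) cells at 1 h and 0 for both RelA(TA2) responses, and Traf3 in RelA(TA2) turned to -0.15. Without joined genes the count in RelA(wt) cells at 1 h was 0, and on fragments that of the 1 h response of RelA(TA2) was 0. With transcripts of at least 300 bases, the counts were 1 in RelA(wt) cells at 2 h, 2 in RelA(TA2) cells at 1 h and 2 in RelA(S276A) cells at 2 h. A filter of 5 FPKM gave 2 in RelA(TA2) cells at 1 h, and no variance trend gave 2 there, 1 in RelA(S276A) cells at 2 h and, on fragments, 5 there. Median-of-ratios scaling gave 5 in RelA(TA2) cells at 2 h. The cause of these shifts was not tested. The limit of 300 bases and all alternatives on fragments were chosen after seeing the data. Another amount added (0.1 or 1), no filter and quantile normalization moved no count beyond 1.5 times. No scaling moved the median of all genes by more than 0.0721 on the log2 scale. Of the single gene calls in all comparisons, median-of-ratios scaling lost 2 of 26 on FPKM and 18 of 112 on fragments. On fragments it moved the median change of all genes at 2 h over the lines from -0.0635 to -0.01. Small falls at 2 h on fragments therefore depend on the scaling.

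Leaving out 1 library at a time, the FPKM counts ran over 2 to 4 at 1 h and 6 to 9 at 2 h over the lines, 1 to 3 for RelA(TA2) and 2 to 4 for RelA(S276A) against RelA(wt), 1 to 2 and 2 to 5 in RelA(TA2) cells at 1 h and 2 h, 0 to 0 and 0 to 3 in RelA(S276A) cells, and 0 to 1 and 0 to 3 in RelA(wt) cells. The responses ran over 1 to 2 and 1 to 1 for RelA(TA2) and 0 to 1 and 0 to 2 for RelA(S276A). On fragments the ranges were 7 to 11, 19 to 24, 8 to 13 and 11 to 16 for the averages, 4 to 11 and 8 to 18 in RelA(TA2) cells, 1 to 8 and 2 to 10 in RelA(S276A) cells, 2 to 8 and 3 to 13 in RelA(wt) cells, and 1 to 6, 0 to 2, 0 to 1 and 0 to 1 for the responses. The highest count of the 1 h response of RelA(TA2) on fragments, 6, came without RelA(TA2) 0 h replicate 1.

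With a replicate block the averaged counts were 3, 8, 2 and 3 on FPKM and 8, 24, 9 and 15 on fragments, and no count moved beyond 1.5 times. On single genes the block lost 2 of 26 calls on FPKM and 6 of 112 on fragments. Deviations of same-numbered libraries correlated at -0.098 to 0.10 between conditions on fragments, so no strong shift went with the replicate number. This cannot tell whether same-numbered libraries were prepared together, which the labels do not say. Few fragments were recovered for Traf1, with 10 to 42 in its shortest transcript where one was assembled, and for Traf5. Whether the depth of 25.3 M to 31.3 M fragments limited these genes was not tested.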
